A study of Mus musculus with 2 samples.

Results

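Cartilage and bone differentiation genes were followed in mouse embryonic fibroblasts (MEFs), connective-tissue cells cultured from embryos at 13.5 days post coitum. The group was set by name: 36 genes were listed, and a probe set counted when its only gene symbol in the platform annotation was one of them. Of the 36 genes, 33 had a value, each from 1 probe set, among 19938 genes measured in all. Runx2, Bglap and Spp1 were not analysed here. The members were split by stage into 21 early genes (factors and matrix of forming cartilage), 6 genes of the hypertrophic stage, of which 5 were measured, and 9 genes of the bone stage, of which 7 were measured.

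Total RNA from cultures of 2 genotypes was labelled with biotin and hybridised to 1 array each. Both copies of distal chromosome 7 come from the mother in MatDup.dist7 cells and from the father in PatDup.dist7 cells, so neither culture is an unaltered control. The design compares gene expression between them. The sources used here do not give the strain, the number of embryos per culture or the passage. With 1 array per genotype there was no replicate and no test, and precision is limited by the number of arrays.

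Long bones form in embryos through a cartilage model. Mesenchymal cells condense and become chondrocytes under Sox9, with Sox5 and Sox6 as its partners, and lay down a matrix of type II, IX and XI collagen and aggrecan. The chondrocytes then enlarge (hypertrophy), make type X collagen and signal to the surrounding layer through Ihh, and osteoblasts directed by Runx2 and Sp7 replace the matrix with mineralised bone. Fibroblast cultures from whole embryos can include precursors of these lineages, and most members are known from skeletal tissue.

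All levels below are array intensities on a linear scale. Each difference is the log2(intensity + 16) of MatDup.dist7 minus that of PatDup.dist7, and the added 16, the pseudocount, damps differences of dim genes. A member was counted as apart when the arrays differed by at least 2-fold on this scale. Intensities of different probe sets were compared only through common cuts, such as the signal filter, and through sums over marker lists. Sums over a marker list, given below, follow its brightest probe sets. The signal filter mentioned below is an intensity of 66.4, the 50th percentile of all probe sets on both arrays, which the higher of a gene's 2 values had to pass.

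Most members read higher in MatDup.dist7, while the collagen of hypertrophic cartilage stood far on the other side. Of the 33 members, 25 had a difference above 0, against 51.4% of all genes. At least 2-fold higher in MatDup.dist7 were 5 members (Col2a1, Comp, Mgp, Pth1r and Matn4), or 15.2%, against 4.47% of all genes. At least 2-fold higher in PatDup.dist7 were 2 members (Col10a1 and Prg4), or 6.06%, against 3.16% of all genes. The other 26 lay within 2-fold. The median difference was 0.51 for the members and 0.02 for all genes.

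The members included dim genes, whose differences scatter more on these arrays. Among the 12733 genes above the signal filter, 49.3% had a difference above 0, while 2.74% were past 2-fold toward MatDup.dist7 and 2.42% toward PatDup.dist7. Among the 7205 genes below it, these shares were 55%, 7.52% and 4.48%. Of the 33 members, 22 passed the filter, and 12 read above the array's median on both arrays. A gene can pass through the array where it is high alone. Col10a1, Prg4, Pth1r, Sox5, Sox6, Col11a2, Matn1, Epyc, Sp7 and Dmp1 passed in this way. Differences were therefore not counted among the members that passed. In 8 members at least 1 array read below its own 25th percentile (22.9 for MatDup.dist7 and 21.2 for PatDup.dist7). For 5 of the 8 this was PatDup.dist7 alone (Matn4, Comp, Chad, Ibsp and Phex), for Matn3 it was MatDup.dist7 alone, and for Acan and Omd it was both.

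**Figure D1:**
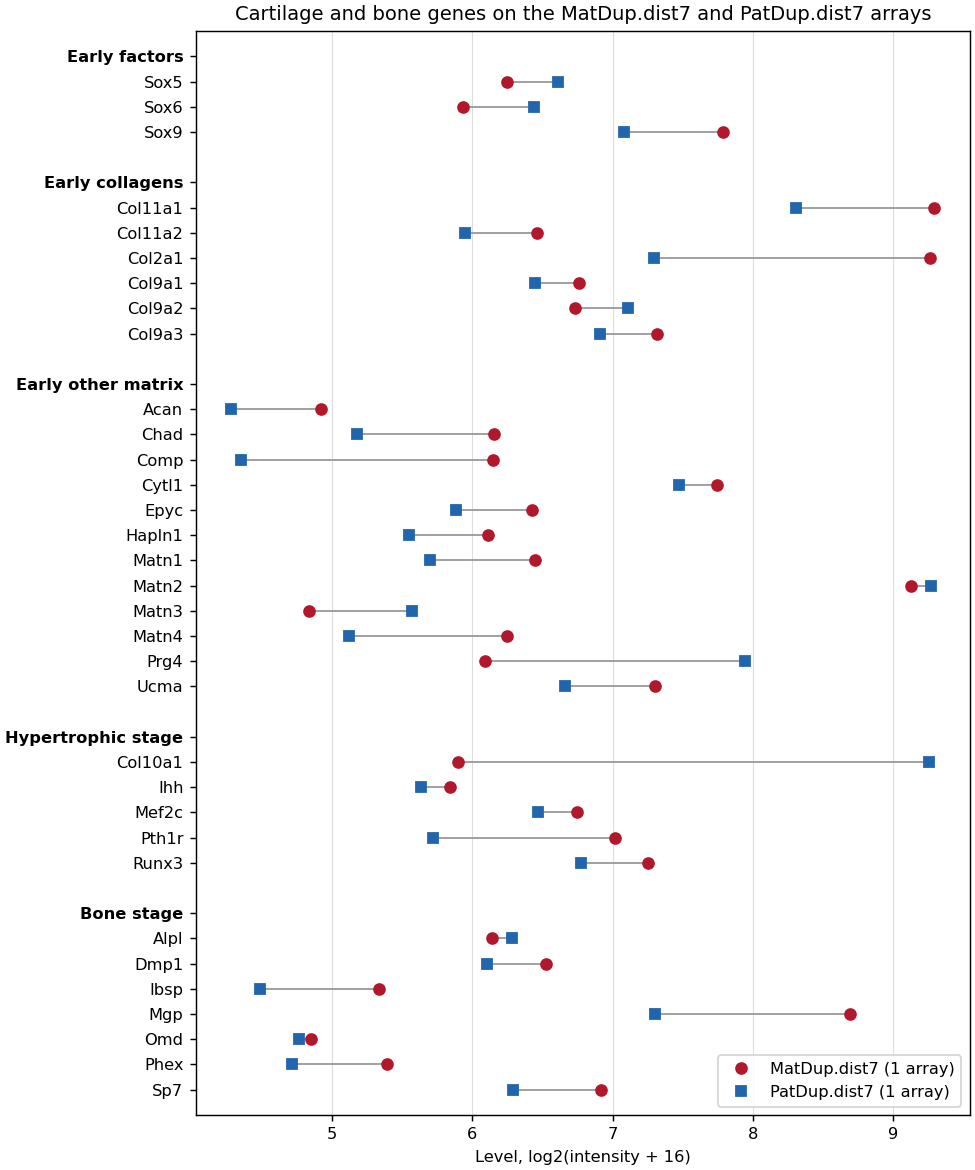
Level of each of the 33 members, as log2(intensity + 16), with circles for MatDup.dist7 and squares for PatDup.dist7, with 1 array per genotype and no error bars. The circle lies to the right of the square for 25 members, and the longest line, that of Col10a1, runs the other way.

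Promoter sequence is shown for the pair of hypertrophic-stage members that lay at least 2-fold apart in opposite directions, Col10a1 and Pth1r. The 250 bases before the first listed transcript start were taken from a set of RefSeq (GRCm38.p6) promoter windows. The set used here held full windows for 25 of the 33 members, and the other members were not searched. Col2a1, Comp, Mgp and Prg4 were among those without a window. The printed windows are chr10:34389731-34389980 on the + strand for Col10a1 and chr9:110747146-110747395 on the - strand for Pth1r. Sequences run 5′ to 3′ along the gene, and capitals mark matches to the motifs described after them.
Col10a1: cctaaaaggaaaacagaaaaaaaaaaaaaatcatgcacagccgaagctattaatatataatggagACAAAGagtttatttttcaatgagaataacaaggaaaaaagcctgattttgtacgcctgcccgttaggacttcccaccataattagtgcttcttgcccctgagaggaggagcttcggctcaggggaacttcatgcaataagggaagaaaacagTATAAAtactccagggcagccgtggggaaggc
Pth1r: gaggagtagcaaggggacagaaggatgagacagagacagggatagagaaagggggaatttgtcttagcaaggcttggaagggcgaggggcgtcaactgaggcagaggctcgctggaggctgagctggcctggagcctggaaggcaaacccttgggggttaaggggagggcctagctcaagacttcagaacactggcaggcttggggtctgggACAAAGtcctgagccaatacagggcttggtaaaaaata

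Searched on both strands were ACAATG or ACAAAG, short forms of the site bound by Sox proteins, TGTGGT or TGCGGT, short forms of the Runx site, and TATAAA, the TATA box. The Col10a1 window held a TATA box 32 to 27 bases before the start and ACAAAG at 185 to 180 bases before it. In the Pth1r window ACAAAG lay 38 to 33 bases before the start, and the other windows listed for this gene held no match. Neither printed window held the Runx letters. Matn4, the only other member past 2-fold with a window, held no match to any of these motifs in either of its windows. Among all 32851 windows of this length, 25.2% held a Sox match, 18.6% a Runx match and 12.4% a TATA box. Of the 40 windows of members, 16 held a Sox match, 9 a Runx match and 8 a TATA box, with several starts of a gene counted apart. These are matches of letters in a window, and binding was not measured.

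The early factors lay within 2-fold, Sox9 above 0 and its partners below. Sox9, the master regulator of chondrocyte fate, read 204 in MatDup.dist7 against 119 in PatDup.dist7, a difference of 0.70. Sox5 had 60.0 and 82.0 (-0.37), and Sox6 had 45.2 and 70.9 (-0.51). Both partners act with Sox9 on cartilage matrix genes. The difference of Sox5 was smaller than 0.40, the SD of this log2 value among probe sets that share a gene, and that of Sox6 was little larger. That spread was measured on 1722 probe sets of 642 genes above the signal filter and holds no variation between cultures. It can be set beside every difference below, and 10 of the 33 members lay beyond 2 SD (0.80) in either direction. Sox6 lies on chromosome 7, as does Acan. Where the segment begins was not established here, so neither was assigned to it.

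Of the 6 early collagen genes 5 read higher in MatDup.dist7, and Col2a1 was the only one of them past 2-fold. Col2a1, whose product is the main fibril collagen of cartilage, read 599 in MatDup.dist7 against 141 in PatDup.dist7. This is a log2 difference of 1.97, or 3.91-fold, which put it at place 62 of the 19938 genes ordered by excess in MatDup.dist7. Col11a1 and Col11a2 encode chains of type XI collagen, which lies inside the type II fibril. Col11a1 had 612 and 301 (0.98, just short of 2-fold) and Col11a2 had 72.0 and 45.8 (0.51), so both type XI genes were higher with Col2a1.

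The genes for the chains of type IX collagen, which coats the fibril surface, did not go one way. Col9a1 had 92.3 in MatDup.dist7 against 71.2 in PatDup.dist7 (0.31), and Col9a3 had 143 and 104 (0.40). Col9a2 had 90.5 and 122 (-0.38). The type IX differences were close to or below the same SD of 0.40. The median of the 6 early collagen genes was 0.46.

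The proteoglycans, matrilins and other early matrix genes had 9 of 12 differences above 0, with a median of 0.60. Comp encodes a pentameric glycoprotein that binds collagen in cartilage and tendon. It had 54.9 in MatDup.dist7 against 4.44 in PatDup.dist7 (1.79), but stayed below the signal filter, and its difference was 3.36 with a pseudocount of 1 and 0.80 with 64. Acan, the gene of the large aggregating proteoglycan of cartilage, was dim on both arrays, with 14.3 and 3.46 (0.64, or 1.78 with a pseudocount of 1). Hapln1, whose link protein ties aggrecan to hyaluronan, had 53.1 and 30.9 (0.56). Acan and Hapln1 therefore went the same way as Col2a1 but within 2-fold, at levels below the signal filter.

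The 4 matrilin genes, which encode adaptor proteins of the matrix, were split. Matn1, a cartilage matrilin, had 71.2 in MatDup.dist7 against 36.0 in PatDup.dist7 (0.75). Matn4 had 59.9 and 18.8 (1.12), past 2-fold, though with a pseudocount of 64 the difference was 0.58. Matn3, the other cartilage matrilin, had 12.6 and 31.6 (-0.74), which reached -1.26 with a pseudocount of 1. Matn2, which is made in many connective tissues besides cartilage, had 544 and 601 (-0.14). On at least 1 array Matn3 and Matn4 read below the 25th percentile, as given above.

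Smaller leucine-rich and secreted proteins of cartilage were higher in MatDup.dist7 without reaching 2-fold. Chad, which encodes chondroadherin, a cell-binding leucine-rich protein, had 55.4 in MatDup.dist7 against 20.2 in PatDup.dist7 (0.98, or 1.41 with a pseudocount of 1). Epyc, the gene of the growth plate proteoglycan epiphycan, had 70.2 and 43.0 (0.55), and Ucma, a secreted vitamin K-dependent protein gene of immature chondrocytes, had 142 and 85.2 (0.64). Cytl1, a cytokine-like gene expressed in chondrocytes, had 199 and 162 (0.27, below the SD of 0.40 given above). Chad and Col11a1 were the nearest to the 2-fold line from inside, and Matn4 was the nearest beyond it.

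Prg4 was the only early gene past 2-fold toward PatDup.dist7. It encodes lubricin, the lubricant of the joint surface, made by superficial chondrocytes and synovial cells. Its intensity was 52.3 in MatDup.dist7 against 230 in PatDup.dist7, with a log2 difference of -1.85, or 3.61-fold, which put it at place 57 of all genes ordered by excess in PatDup.dist7. With pseudocounts of 1 and 64 it was -2.12 and -1.34. Over the 21 early genes, 3 (14.3%) were past 2-fold toward MatDup.dist7, against 4.47% of all genes. Toward PatDup.dist7 there was 1 (4.76%, against 3.16%), and 17 lay within 2-fold, with a median of 0.55. Of the 3, Comp and Matn4 stayed below the signal filter, where 7.52% of genes were past 2-fold toward MatDup.dist7.

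**Figure D2:**
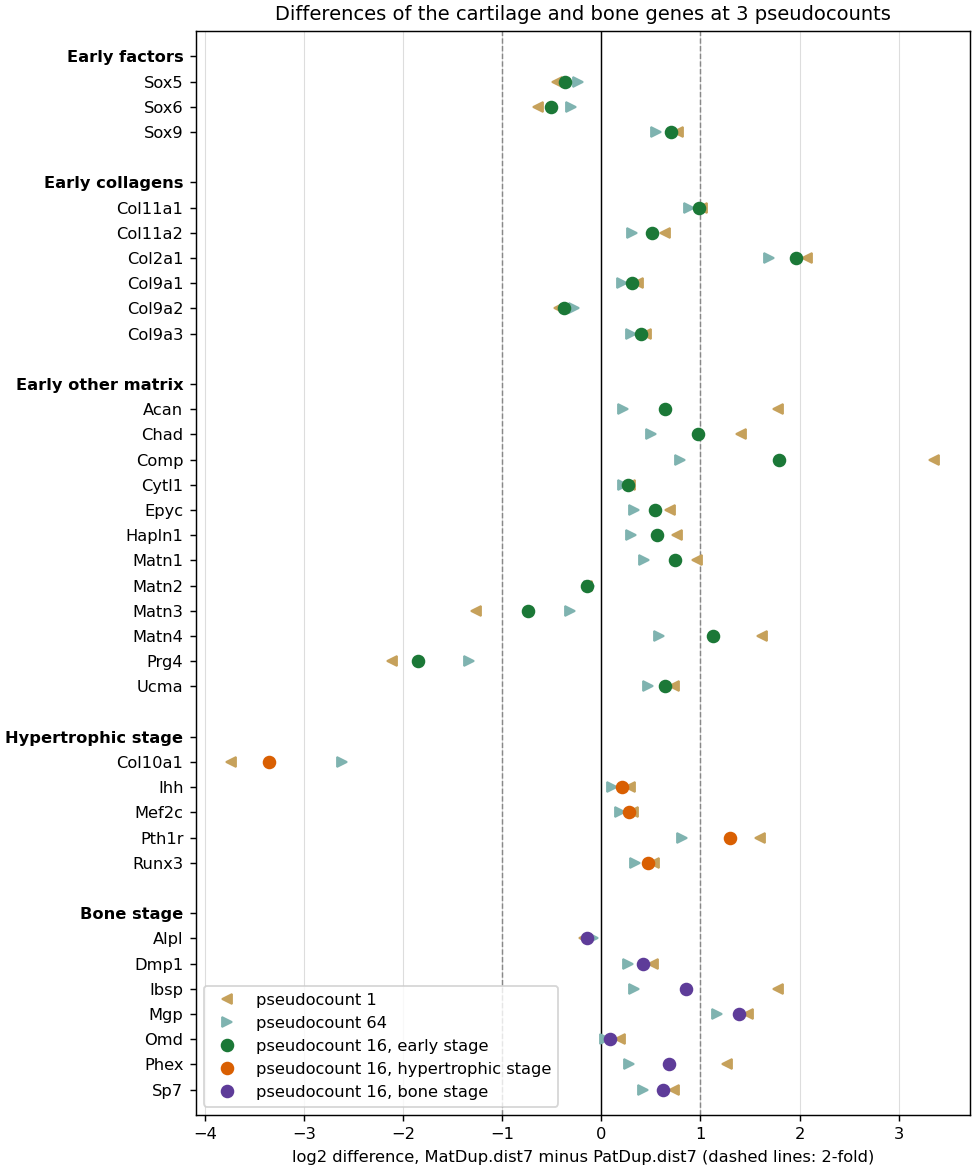
Log2 difference (MatDup.dist7 minus PatDup.dist7) of each member with a pseudocount of 16 (circles, coloured by stage), 1 (left-pointing triangles) and 64 (right-pointing triangles); dashed lines mark 2-fold. Col2a1, Mgp, Prg4 and Col10a1 lie beyond 2-fold at all 3 pseudocounts, while Comp, Matn4 and Pth1r fall inside it at 64.

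At the hypertrophic stage, Col10a1 parted from the other measured genes. Col10a1 encodes type X collagen, the defining matrix protein of hypertrophic cartilage. It read 43.7 in MatDup.dist7 against 595 in PatDup.dist7, with a log2 difference of -3.35, or 10.2-fold. Of all 19938 genes only Igf2 had a larger excess in PatDup.dist7. With pseudocounts of 1 and 64 the difference was -3.74 and -2.61. Col2a1 and Col10a1, the collagens of successive cartilage stages, thus went in opposite directions, 5.32 apart on the log2 scale.

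The remaining 4 hypertrophic-stage genes all read higher in MatDup.dist7. Pth1r, the receptor through which parathyroid hormone-related protein delays hypertrophy, had 113 in MatDup.dist7 against 36.7 in PatDup.dist7 (1.30, or 2.45-fold; 0.82 with a pseudocount of 64). Ihh, the hedgehog ligand of prehypertrophic chondrocytes, had 41.4 and 33.7 (0.21), both below the signal filter. Mef2c, a transcription factor that promotes hypertrophy, had 91.3 and 72.7 (0.27). Runx3, which acts beside Runx2 in chondrocyte maturation, had 136 and 93.8 (0.47). Apart from Pth1r, none of these 4 reached 2-fold. Ihh and Mef2c differed by less than the SD of 0.40 given above, and Runx3 by little more. The 5 measured genes had a median of 0.27 and a mean of -0.22, thus of opposite sign, and without Col10a1 the mean was 0.56.

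In the bone-stage group 6 of 7 differences were above 0, with a median of 0.62, and Mgp alone passed 2-fold. Mgp encodes matrix Gla protein, an inhibitor of mineralisation made by chondrocytes as well as by vascular cells and fibroblasts. It had 397 in MatDup.dist7 against 142 in PatDup.dist7 (1.39, or 2.62-fold). Sp7, the osteoblast transcription factor osterix, had 105 and 62.4 (0.62). Alpl, the alkaline phosphatase that frees phosphate for mineral, had 54.7 and 62.0 (-0.14) and was the only bone-stage gene lower in MatDup.dist7. Mgp and Alpl, which act against and for mineralisation, stood 1.53 apart.

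The genes of the mineralised matrix were mostly dim. Ibsp, the bone sialoprotein gene, had 24.5 in MatDup.dist7 against 6.41 in PatDup.dist7 (0.85). Dmp1, a matrix protein gene of osteocytes, had 76.3 and 52.7 (0.43). Phex, an osteocyte gene of phosphate control, had 26.0 and 10.2 (0.68). Omd, the gene of the bone proteoglycan osteomodulin, had 12.9 and 11.2 (0.09, below the SD of 0.40 given above). All 4 lay within 2-fold, and Dmp1 alone passed the signal filter, through MatDup.dist7 only. With a pseudocount of 1 Ibsp and Phex passed 2-fold, at 1.78 and 1.27. Phex is X-linked, and the arrays differed in sex-linked transcripts: Xist was listed at 0.00166 in MatDup.dist7 against 91.2 in PatDup.dist7, and the Y-linked Uty at 77.9 and 2.61. Genotype and sex of the cultures cannot be told apart. Without Phex the median of the members was 0.49.

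**Figure D3:**
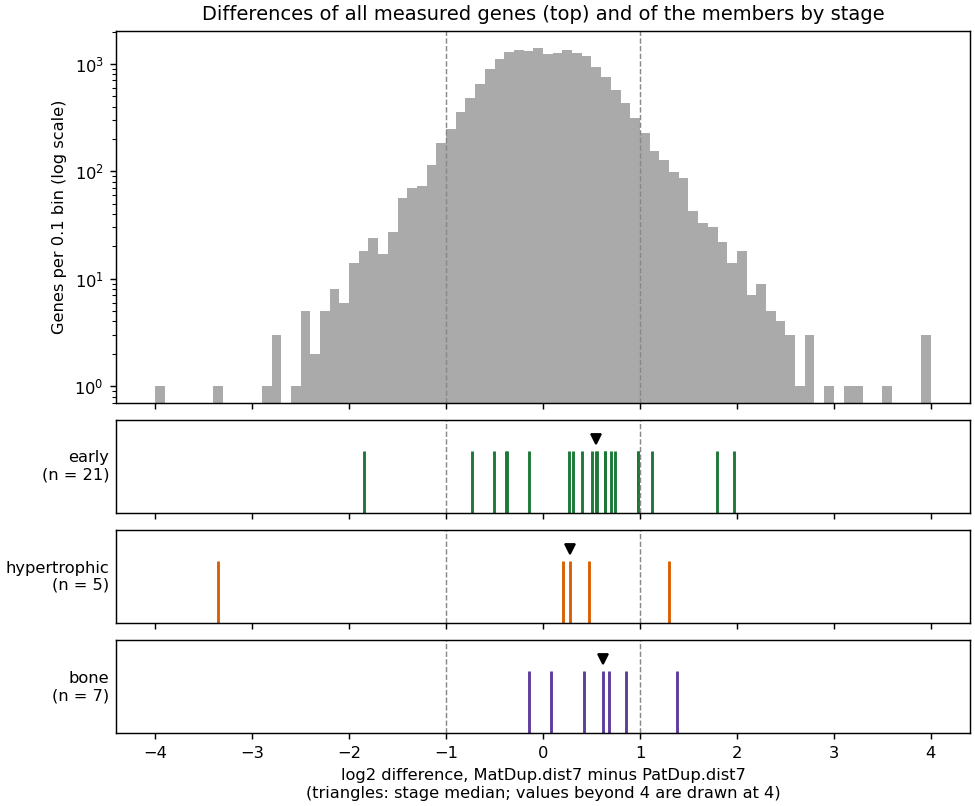
Top, number of genes per 0.1 of log2 difference (MatDup.dist7 minus PatDup.dist7) for all 19938 genes, on a log count axis; below, 1 line per member for the early (21), hypertrophic (5) and bone (7) stages, with a triangle at the stage median. The triangles stand at 0.55, 0.27 and 0.62, and the Col10a1 line at -3.35 lies far from the other 4 of its stage.

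**Figure D4:**
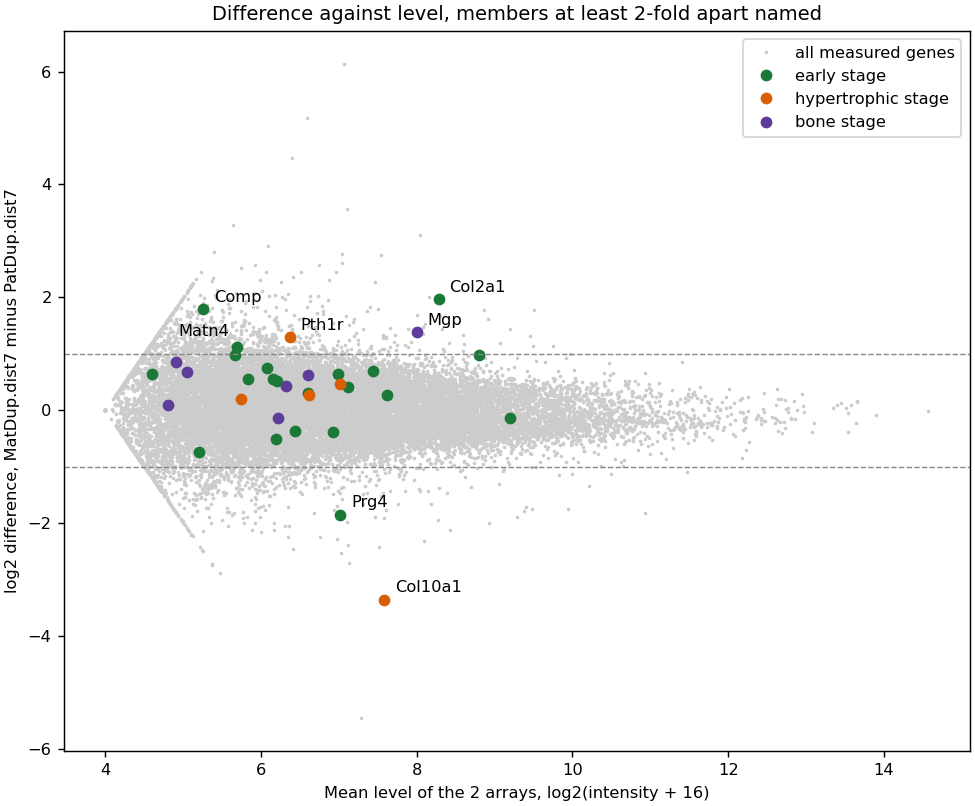
Log2 difference (MatDup.dist7 minus PatDup.dist7) against the mean of both log2(intensity + 16) levels for all genes (grey) and the members, coloured by stage; dashed lines mark 2-fold. Comp and Matn4 lie toward the dim left end, whereas Col2a1 and Mgp lie where the grey cloud is narrow and mostly within 2-fold.

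Genes that act with the members were taken from lists of signals, receptors, inhibitors, factors and products of skeletal development. Of 100 listed, 94 were measured, and 46 (48.9%) had a difference above 0, against 51.4% of all genes. Past 2-fold toward MatDup.dist7 were 6 (6.38%, against 4.47% of all genes). Toward PatDup.dist7 there were 4 (4.26%, against 3.16%). These shares lay near those of all genes, and the single lists below can be read beside the same shares. The 94 genes had a median of -0.01 and a mean of 0.03. Their median lay close to the 0.02 of all genes, below the 0.51 of the members. None of the 11 signals, 13 receptors and transducers and 6 inhibitors reached 2-fold. The widest difference among the signals was that of Wnt5a (327 in MatDup.dist7 against 566 in PatDup.dist7, -0.76). Among the receptors and transducers it was that of Fgfr2 (176 and 84.9, 0.93), a growth factor receptor gene of the early skeleton. Fgfr2 lies on chromosome 7, as Sox6 and Acan do, and was likewise not assigned to the distal segment. Among the inhibitors it was that of Hhip (566 and 318, 0.80), a hedgehog inhibitor gene.

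Factors of early skeletal tissue had 3 of 12 genes (25.0%, against 4.47% of all genes) at least 2-fold higher in MatDup.dist7. Pax1, a factor of the sclerotome, the embryonic source of vertebrae, was listed at 46.7 in MatDup.dist7 against 0.00740 in PatDup.dist7 (1.97, or 0.79 with a pseudocount of 64). Nkx3-2, which works downstream of sclerotome signals to promote cartilage, had 51.6 and 12.1 (1.27), and Foxc1, a forkhead factor of head and trunk mesenchyme, had 286 and 104 (1.34). Of these 3, Foxc1 alone passed the signal filter. Among 9 late skeletal factors Msx1, a homeobox gene of limb and head mesenchyme, lay past 2-fold toward PatDup.dist7 (24.5 and 101, -1.53).

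Other products of cartilage and bone were split around 0. Of 14 cartilage products, 7 differences were above 0 and 2 genes (14.3%, against 4.47% of all genes) passed 2-fold toward MatDup.dist7. They were Fmod, which encodes the collagen-binding proteoglycan fibromodulin (124 and 33.4, 1.50), and Edil3, a secreted integrin ligand gene (453 and 206, 1.08). Of 15 bone products, 7 were above 0, and Smpd3, a sphingomyelinase gene needed for mineralisation, was the one past 2-fold (79.8 and 16.2, 1.57). That is 6.67% of the bone products, against the same 4.47%. The list median was 0.03 for the cartilage products and -0.21 for the bone products (mean 0.08), below the 0.55 and 0.62 of the early and bone-stage members. The signal filter was passed by 13 of 15 bone products and by 3 of 7 bone-stage members.

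A pair of matrix proteases, Mmp13 and Adamts4, lay past 2-fold on the same side as Col10a1. Mmp13, the collagenase of late hypertrophic cartilage, had 53.3 in MatDup.dist7 against 256 in PatDup.dist7 (-1.97). Adamts4, an aggrecan-cleaving protease gene, had 45.3 and 127 (-1.22), whereas Adamts5, of the same activity, had 495 and 292 (0.73). Over the 6 genes of this list 4 differences were negative and the median was -0.48. The genes past 2-fold toward PatDup.dist7 were 33.3% of the list, against 3.16% of all genes. Among 8 tendon and joint genes Mkx, a tendon homeobox gene, was listed at 0.0155 in MatDup.dist7 against 57.4 in PatDup.dist7 (-2.20, or -0.92 with a pseudocount of 64), and the other 7 lay within 2-fold.

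**Figure D5:**
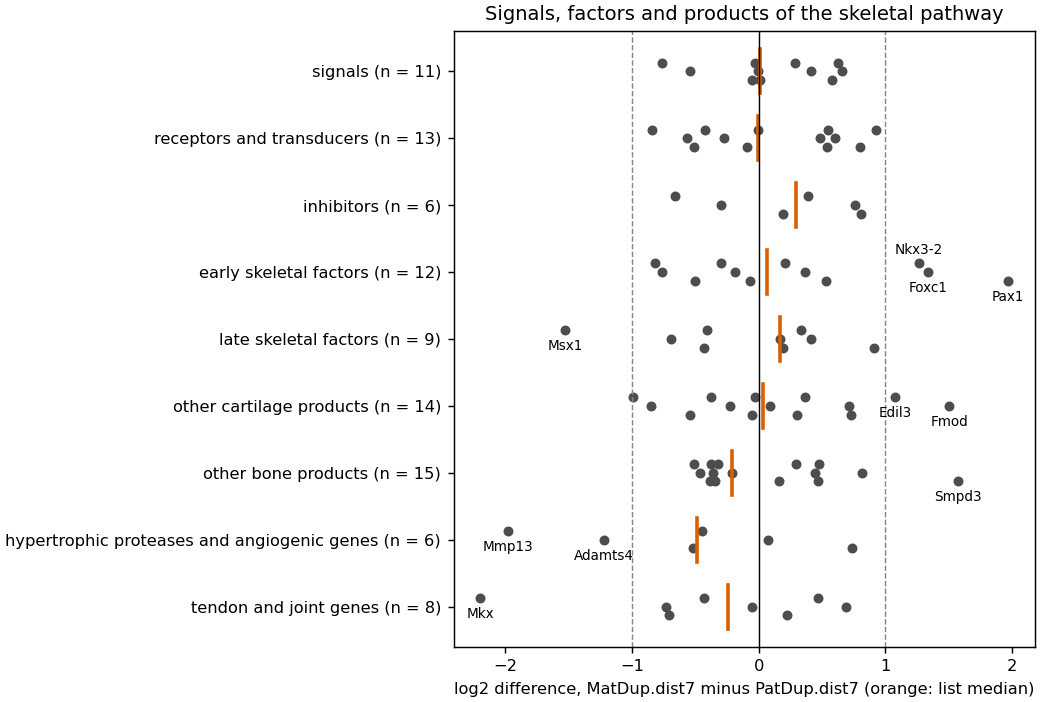
Log2 difference (MatDup.dist7 minus PatDup.dist7) of each measured gene in 9 lists of signals, factors and products that act with the members, with the list median in orange and genes at least 2-fold apart named. The medians run from -0.48 for the hypertrophic proteases and angiogenic genes to 0.29 for the inhibitors.

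Markers checked the labelled cell type and the other cells that the cultures could hold. The counts of these short lists can be read beside all genes, of which 51.4% read higher in MatDup.dist7. Among genes below the signal filter this share was 55%. The 13 fibroblast markers summed to intensities of 44766 (MatDup.dist7) and 53567 (PatDup.dist7). Of the 13, 12 passed the signal filter, Lum being the other. In MatDup.dist7 10 of 13 were lower, with Dcn (142 and 592, -1.95) and Postn (520 and 1788, -1.75) past 2-fold. These 2 are 15.4% of the list, against 3.16% of all genes past 2-fold toward PatDup.dist7. Of 11 macrophage markers, 8 were lower in MatDup.dist7 (sums 5563 and 6380). Of 8 osteoclast markers, 4 were lower, among them Acp5 (13.3 and 92.4) and Ctsk (74.0 and 194), while Oscar stood at 34.1 and 0.474. Epithelial markers were higher in MatDup.dist7 for 6 of 7 genes (sums 785 and 445), and neural and glial markers for 5 of 6 (sums 1622 and 538). Within the neural sums Stmn2 alone had 755 and 73.7. Markers of skeletal muscle, smooth muscle, endothelium and adipocytes were higher in MatDup.dist7 for 3 of 8, 4 of 7, 2 of 6 and 5 of 6 genes. The signal filter was passed by 10 of 11 macrophage, 4 of 8 osteoclast, 5 of 7 epithelial and 3 of 6 neural and glial markers. It was passed by 6 of 8 skeletal muscle, 7 of 7 smooth muscle, 1 of 6 endothelial and 4 of 6 adipocyte markers. In whole cultures fewer cells of a type and less RNA per cell cannot be told apart, and the part of these cell types in the members' differences was not tested. The distal imprinted genes checked the genotype labels: Cdkn1c read 1109 against 0.0132 and Igf2 7.48 against 1013 (MatDup.dist7 first).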

How the data were processed

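Gene expression was measured on 1 array per genotype, MatDup.dist7 and PatDup.dist7, grouped by the genotype label. The deposited table holds linear probe set intensities. The authors used Affymetrix Expression Console, per the submitters' processing notes, and the background correction, summarisation, normalisation and detection calls behind them are not stated in the sources used here. Of 35557 probe sets, 21789 had 1 gene symbol, 1621 several and 12147 none, and only the first kind was used. Symbols were updated by gene identifier (21698 matched, GRCm38.p6), and log2(intensity + 16) was averaged over the probe sets of a gene. Differences are MatDup.dist7 minus PatDup.dist7. No test was possible. Every measured member was named, and of each partner list up to 4 genes at least 2-fold apart, or the widest one where none was. The members, lists and settings were chosen with earlier results of these data known. Alternatives were pseudocounts of 1 and 64, quantile normalisation, median centring, the signal filter, the brightest probe set, a floor at the 25th percentile and a 3-fold rule. Calculations used Python 3.11.15, numpy 2.4.6 and pandas 2.3.3 and were tested on simulated arrays. The simulation raised all levels and used little noise, so it checked the code and not the calls of dim genes.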

Additional observations from a re-analysis of the deposited data

How the results depend on the processing

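Most alternatives could not turn the sign of a member's difference. A pseudocount is added to both arrays, a floor can only bring a difference to 0, and each member had 1 probe set. Quantile normalisation and median centring could have turned a sign, and neither did. Acan and Omd came to 0 with the floor at the 25th percentile, where both arrays lay under it. The median of all members ran from 0.30 (pseudocount of 64) to 0.64 (pseudocount of 1). Those of the early, hypertrophic and bone stages changed in size. The early median ran from 0.30 (pseudocount of 64) to 0.69 (pseudocount of 1). The bone-stage median, 0.62 in the main setting, was 0.25 with the floor, 0.28 with a pseudocount of 64 and 0.74 with a pseudocount of 1. Counts past the fold moved more, mainly with the treatment of dim signals, and those of all 19938 genes moved too. With a pseudocount of 1, 10 members were higher in MatDup.dist7 in place of 5 (6 early and 3 bone-stage in place of 3 and 1). Over all genes it was 2183 in place of 891. In PatDup.dist7 2 early genes in place of 1 were higher, and over all genes 1704 in place of 631. With a pseudocount of 64 there were 2 members higher in MatDup.dist7, 1 early and 0 hypertrophic, and 93 of all genes. Members were not counted behind the signal filter, which a gene can pass through the array where it is high. The floor gave 5 early genes higher in MatDup.dist7, and 1022 of all genes. The 3-fold rule left 2 members higher in MatDup.dist7, with 0 hypertrophic and 0 bone-stage, and 163 of all genes. Col11a1, at 0.98, passed 2-fold with a pseudocount of 1, with quantile normalisation and with the floor. Col10a1 ran from -3.77 to -2.61 and Col2a1 from 1.69 to 2.09 over the 6 alternatives that give a value per gene. Over all genes the counts higher in MatDup.dist7 and PatDup.dist7 were 891 and 631, against 2183 and 1704 with a pseudocount of 1, 93 and 80 with 64, 349 and 308 with the filter and 163 and 110 with the 3-fold rule. The median difference of all genes was 0.02, and -0.0093 with the filter. No paired analysis was possible because each genotype had 1 array.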

Other observations

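Genes of the hedgehog pathway, through which Ihh paces cartilage growth, were picked out after their values were seen. The pathway's transcriptional targets Gli1 (120 in MatDup.dist7 against 76.7 in PatDup.dist7, a difference of 0.55 on the log2 scale), Ptch1 (131 and 84.7, 0.54) and Hhip (566 and 318, 0.80) all read higher in MatDup.dist7. So did the transducer Smo (500 and 352, 0.49) and the factor Gli2 (253 and 139, 0.80), whereas Gli3, which acts largely as a repressor, had 131 and 181 (-0.42). None of these 6 genes reached 2-fold. The fibroblast growth factor receptor genes were split, with Fgfr1 at 752 and 1358 (-0.84), Fgfr2 at 176 and 84.9 (0.93) and Fgfr3, which restrains chondrocyte growth, at 83.4 and 49.4 (0.61).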
